A study of Mus musculus with 9 samples.

Results

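The genes described here were the selenoproteins and the machinery that makes and inserts selenocysteine, 30 genes chosen by name out of the 56941 in the count table. Of these, 21 encode a selenoprotein and 9 do not. All 30 passed the filter on low counts, with between 32 counts (Txnrd3) and 17659 counts (Selenop) in a library. Membership followed gene names, but the family was taken up with the high level of Sephs2 on the ketogenic diet already known. Sephs2 in comparisons with that diet is therefore given as a description, without a test.

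RNA was sequenced from pancreatic islets, the hormone-secreting cell clusters of the pancreas, of wild-type male C57BL/6J mice aged 15 weeks when the diets began. For 9 months they ate a low fat diet (LFD) with 10% fat, a high fat diet (HFD) with 60% fat or a ketogenic diet (KD) with 89.9% fat. There were 3 LFD, 2 HFD and 4 KD libraries. The labels do not say whether a library held the islets of 1 mouse or of several, so p-values measure the spread between these libraries, and they name no isolation or sequencing batch, which therefore cannot be told apart from diet.

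Selenocysteine is an amino acid that carries selenium in place of the sulfur of cysteine. It is built on its own transfer RNA and inserted at UGA codons, which otherwise end translation, when a hairpin in the untranslated end of the messenger RNA recruits a dedicated binding protein and elongation factor. Most selenoproteins are oxidoreductases that remove peroxides, reduce thioredoxin or assist folding in the endoplasmic reticulum (ER), and beta cells are known for low levels of several peroxide-removing enzymes.

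The in-frame UGA codon defines a selenoprotein, and the coding sequences of the genes that the comparisons turn on are shown to make it visible. They are GENCODE M21 transcripts on GRCm38, written 5′ to 3′ as DNA. Sephs2 (ENSMUSG00000049091) makes the selenophosphate from which selenocysteine is built and is itself a selenoprotein, with its TGA at codon 63 of 452 (chr7:127273731-127273733, minus strand). Sephs1 (ENSMUSG00000026662) is its paralogue without selenocysteine. Over 391 aligned codons, 74.4% coded for the same residue, and codon 29 of Sephs1 aligned with the TGA of Sephs2. Capitals mark the TGA codon and, for Sephs1, the codon aligned with it.
Sephs2: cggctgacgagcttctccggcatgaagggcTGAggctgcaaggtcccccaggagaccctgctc
Sephs1: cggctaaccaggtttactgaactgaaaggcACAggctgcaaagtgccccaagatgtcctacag

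Selenop (ENSMUSG00000064373) encodes selenoprotein P, the secreted carrier that moves selenium between organs, and holds 10 TGA codons where each of the other 20 selenoprotein genes has 1. The stretch from codon 318 to codon 377 contains the last 7 of them, again in capitals.
Selenop: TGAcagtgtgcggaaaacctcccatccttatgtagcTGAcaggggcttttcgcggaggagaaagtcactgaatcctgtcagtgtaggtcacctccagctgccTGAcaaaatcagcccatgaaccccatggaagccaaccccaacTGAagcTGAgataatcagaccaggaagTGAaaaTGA
Msrb1 and Selenos are shown because both turn up among the low p-values of KD against HFD. The TGA lies at codon 95 of 116 in Msrb1 (chr17:24740158-24740160, plus strand) and at codon 189 of 190 in Selenos (chr7:66088844-66088846, plus strand). In Selenos 1 codon lies between the TGA and the stop codon.
Msrb1: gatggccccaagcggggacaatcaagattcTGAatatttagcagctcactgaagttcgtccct
Selenos: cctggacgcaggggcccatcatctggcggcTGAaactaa

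Levels within the family differed widely. They are given here as CPM, counts scaled to the library size, per kilobase of exon, with the SD over the 3 LFD libraries. On LFD, Selenop was highest at 167 ± 31.0 CPM per kilobase. Gpx3, the secreted glutathione peroxidase, followed at 87.9 ± 1.09, and Selenot, an ER oxidoreductase, at 43.9 ± 7.11 CPM per kilobase. Selenos (29.2 ± 3.64) and Gpx4 (28.4 ± 1.65 CPM per kilobase) differed by less than their spread. At the other end stood Pstk, the kinase that acts on the serine loaded on the selenocysteine transfer RNA, at 0.636 ± 0.0740, and Txnrd3, a thioredoxin reductase, at 1.17 ± 0.511 CPM per kilobase.

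Some of these levels are uncertain. Pstk shares 58.8% of its annotated exon length with Ikzf5 on the opposite strand, and the strand setting of the counting is unknown here. Ikzf5 had 281 to 533 counts in a library, where Pstk had 60 to 150. Sephs2 shares 36.4% with Gm44729 in the same way, a gene that had at most 10 counts in a library. Selenoo shares 26.7% with Tubgcp6, also on the opposite strand, which had 236 to 606 counts in a library. Gpx2, Gpx4, Selenok and Selenot have named pseudogenes, whose shared reads could have been split. No such pseudogene had more than 33 counts in a library.

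**Figure D1:**
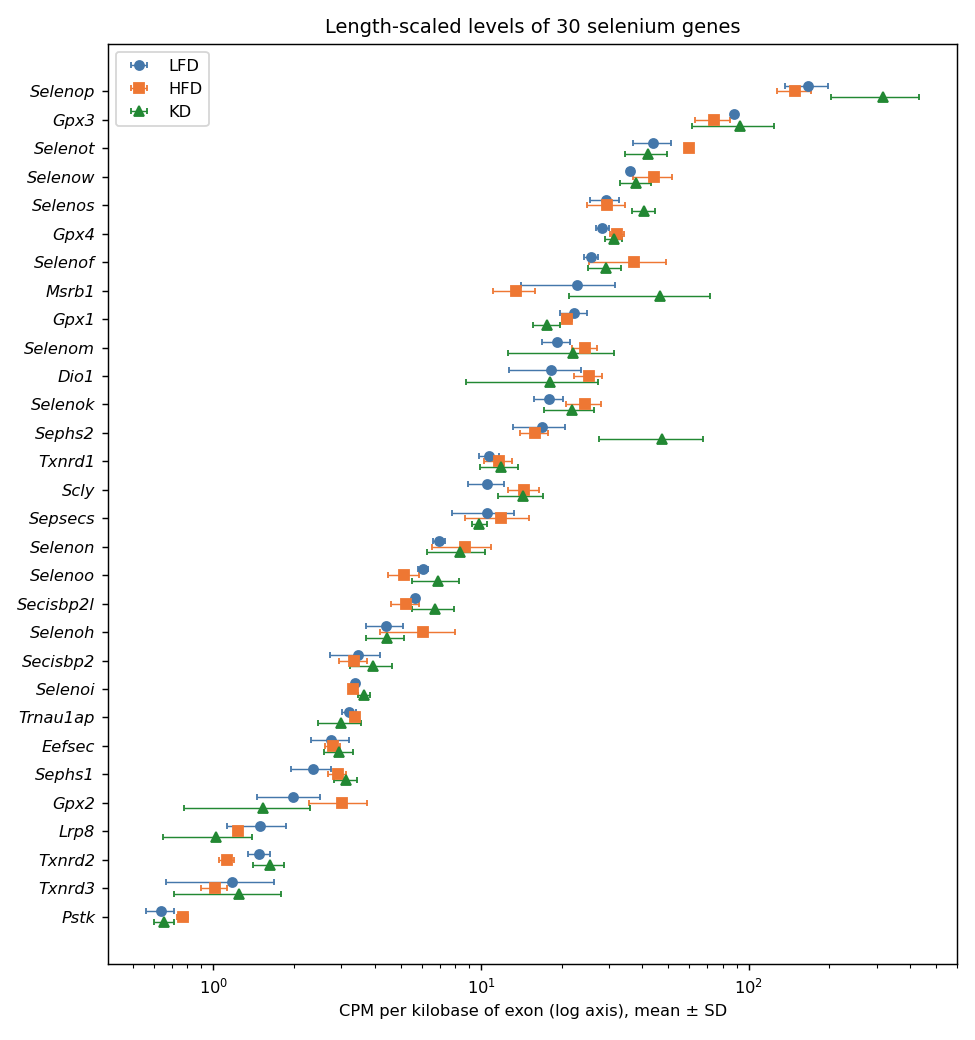
Mean level of each of the 30 genes in CPM per kilobase of exon on a log axis, with the SD as bars, for LFD, HFD and KD. Selenop is the highest gene on LFD at 167 and Pstk the lowest at 0.636 CPM per kilobase.

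Counts were compared with edgeR's quasi-likelihood test, adjusted after Benjamini and Hochberg over 18548 genes, and a gene was called when its adjusted p was below 0.05. For KD against LFD, Sephs2 is left out of the counts because its value was known when the family was chosen, which leaves 29 genes. Of these edgeR called 0, and 4.12% of all genes tested, 0.981% as higher and 3.14% as lower. DESeq2 called 1 of the 29, Selenop, and 9.56% of all genes. Limma-voom called 3, Selenop and Scly as higher and Gpx1 as lower, and 10.1% of all genes. An unadjusted p below 0.05 was reached by 5 of the 29, against 22.7% of all genes. Libraries of KD and LFD did not overlap for Sephs1 and Selenos, both higher on KD, where 19.7% of all genes showed no overlap, 9.69% higher and 10.1% lower. Fold changes were above 0 for 22 of the 29, against 48.1% of all genes, with a median log2 fold change of 0.13 where that of all genes was -0.02.

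For HFD against LFD, edgeR called 0 of the 30 genes and 0% of all genes, while 3 of the 30 had an unadjusted p below 0.05, against 9.99%. DESeq2 also called 0 of the 30 (1.44% of all genes), as did limma-voom (0.0593%). The libraries did not overlap for 13 of the 30, 9 higher and 4 lower on HFD, against 27.5% of all genes, 13.4% higher and 14.1% lower. Fold changes were above 0 for 18 of the 30, against 49.8% of all genes.

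KD against HFD uses the same KD libraries, so Sephs2 is left out here too, which leaves 29 genes. Of these edgeR called 0, and 0% of all genes, while 6 had an unadjusted p below 0.05, against 22.7%. DESeq2 called 2, Selenop and Msrb1 (8.18% of all genes), and limma-voom called 0 (0% of all genes). Libraries did not overlap for Txnrd2, Msrb1, Selenos and Selenop, higher on KD, and for Selenot and Pstk, lower on KD. Over all genes 33.9% showed no overlap, 15.7% higher and 18.2% lower. Fold changes were above 0 for 13 of the 29, against 46.6%. The 3 comparisons share libraries, so their values are set side by side and not counted as independent.

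Islet preparations hold some acinar tissue, the enzyme-secreting part of the pancreas. Acinar markers made up 36.0%, 25.3% and 15.2% of all counts in LFD replicates 1 to 3, 19.1% and 11.4% on HFD, and 61.2%, 45.0%, 56.8% and 20.6% in KD replicates 1 to 4. Of 35 acinar markers 32 were tested, and 28 of them had a log2 fold change above 0 for KD against LFD, with a median of 1.51. The other 4 were below 0. EdgeR called 1 of the 32, Amy2b, and it was lower on KD (log2 fold change -3.18, edgeR adjusted p 0.0279). Hormone genes made up 5.96% to 9.40% of counts on LFD, 10.7% to 11.8% on HFD and 1.96% to 13.2% on KD. Lymphocyte markers made up 0.055%, 0.156% and 0.0088% of counts in LFD replicates 1 to 3, 0.0069% and 0.0112% on HFD and at most 0.00141% on KD. LFD replicate 3 thus lay between the HFD libraries. All 12 lymphocyte markers were called lower on KD than on LFD. For KD against LFD, 9 of 9 fibroblast and stellate markers (median -0.72) and 9 of 9 macrophage markers (-0.61) were also below 0. So were 8 of 8 hepatocyte markers (-0.84) and 6 of 8 duct markers (-0.59). Of these lists edgeR called Lyz2, Tf, Fgb, Krt19, Cftr and Spp1, all lower on KD. Beta cell markers (5 of 10 below 0) and endothelial markers (5 of 8) went both ways. In bulk tissue, fewer cells of a type and less RNA per cell cannot be told apart. KD replicate 4 had an acinar share inside the LFD range, unlike the other 3 KD libraries.

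Sephs2 is the first of the selenophosphate synthetases. It measured 44.3, 37.5 and 28.2 CPM in LFD replicates 1 to 3, 37.5 and 31.7 CPM on HFD, and 145, 83.4, 132 and 52.1 CPM in KD replicates 1 to 4. Every KD library lay above every LFD and HFD library, and KD replicate 4 came closest to them. Means were 36.6 ± 8.07 CPM for the 3 LFD, 34.6 ± 4.10 for the 2 HFD and 103 ± 43.2 for the 4 KD libraries (± SD). As log2 fold changes these came to 1.49 ± 0.32 (SE) for KD against LFD and 1.57 ± 0.38 for KD against HFD. Both values are given as a description, without a test. HFD against LFD gave -0.08 ± 0.37.

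Within each diet the libraries ranked by Sephs2 in the order of their acinar share. This held for 2 of the 30 genes, Sephs2 and Msrb1, and for 3.31% of the 18516 genes outside the acinar list. With the mean log2 CPM of the acinar markers as a covariate, Sephs2 had a log2 fold change of 0.91 ± 0.13 (SE) for KD against LFD and of 0.39 ± 0.19 for KD against HFD, where it was 1.57 without the covariate. KD replicate 4, with an acinar share of 20.6%, had 52.1 CPM of Sephs2, above the LFD range of 28.2 to 44.3. With a lymphocyte score as a covariate the value for KD against LFD was 1.76 ± 1.12 (SE). That fit called 0 of the 29 genes other than Sephs2 and 0% of all genes.

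Sephs1, which is not thought to make selenophosphate, differed less. It measured 15.0, 11.2 and 15.52 CPM on LFD, 16.3 and 18.1 on HFD, and 20.3, 16.3, 19.8 and 17.8 CPM in KD replicates 1 to 4. The HFD and KD libraries lay just above all LFD libraries. KD against LFD gave a log2 fold change of 0.41 ± 0.16 (SE), which did not pass (edgeR adjusted p 0.156), and its sign turned with the lymphocyte covariate (-0.22 ± 0.44). In CPM, which is not corrected for length, Sephs2 came to 1.82 to 3.33 times Sephs1 on LFD, 1.75 to 2.30 times on HFD and 2.93 to 7.16 times on KD.

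**Figure D2:**
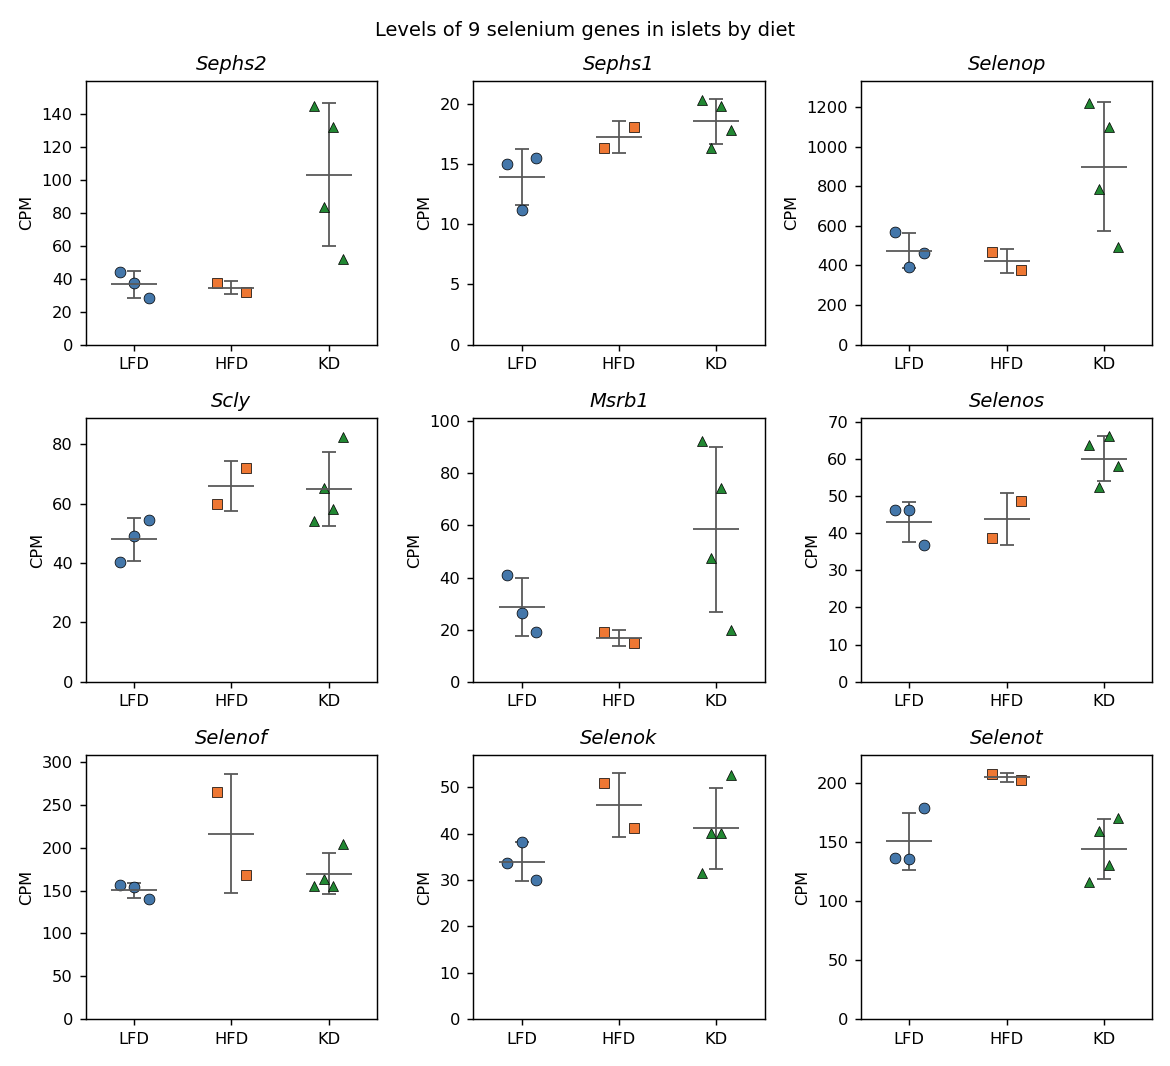
CPM of 9 genes by diet, with 1 point per library and the mean ± SD, each axis starting at 0. Sephs2 ranges from 52.1 to 145 CPM on KD and from 28.2 to 44.3 on LFD, and KD replicate 4 is the lowest KD library for Sephs2, Selenop and Msrb1.

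The genes of selenium transport and recycling differed in direction. Selenop measured 568, 393 and 463 CPM on LFD, 466 and 379 on HFD, and 1218, 787, 1101 and 495 CPM in KD replicates 1 to 4. KD replicates 1 to 3 lay above all LFD libraries, and KD replicate 4 lay among them. Neither comparison passed, with a log2 fold change of 0.92 ± 0.29 (SE) for KD against LFD (edgeR adjusted p 0.0922) and of 1.09 ± 0.33 for KD against HFD (edgeR adjusted p 0.125). Without KD replicate 4 both passed, at 1.13 (edgeR adjusted p 0.0209, and 0.00288 to 0.904 across alternatives) and 1.29 (0.0196, and 0.00632 to 0.812). The acinar covariate gave 0.45 ± 0.17 (SE) for KD against LFD and 0.18 ± 0.24 for KD against HFD.

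Scly, selenocysteine lyase, which frees selenium from selenocysteine for reuse, ran against the acinar share. It measured 40.3, 49.1 and 54.6 CPM on LFD, 59.9 and 72.0 on HFD, and 54.3, 65.3, 58.1 and 82.5 CPM in KD replicates 1 to 4. Both HFD libraries exceeded the LFD libraries, and KD overlapped LFD only between KD replicate 1 and LFD replicate 3. Neither difference passed: KD against LFD gave 0.44 ± 0.17 (SE, log2, edgeR adjusted p 0.152) and HFD against LFD 0.46 ± 0.20 (edgeR adjusted p 0.485).

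Within each diet Scly ranked the libraries in the reverse order of their acinar share, as did Txnrd1 and 2.39% of the genes outside the acinar list. With the acinar covariate Scly passed for KD against LFD, at a log2 fold change of 0.66 ± 0.11 (SE, edgeR adjusted p 0.00445, and 0.00445 to 0.768 across alternatives). For HFD against LFD it was then 0.19 ± 0.13. That fit called 1 of the 29 genes other than Sephs2 for KD against LFD, Scly, and 8.43% of all genes. For KD against HFD it called 0 of the 29 and 0.0108% of all genes.

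Lrp8, a receptor that takes up selenoprotein P, measured 13.8, 13.2 and 20.2 CPM on LFD, 12.8 and 13.2 on HFD, and 7.16, 10.3, 9.17 and 16.4 CPM in KD replicates 1 to 4. KD replicates 1 to 3 lay below all LFD libraries and KD replicate 4 among them. KD against LFD gave -0.54 ± 0.26 (SE, log2), the lowest of the 30 genes, which did not pass (edgeR adjusted p 0.242). The acinar covariate gave -0.23 ± 0.18. Without KD replicate 4 it passed at -0.82 (edgeR adjusted p 0.0428, and 0.0271 to 0.580 across alternatives).

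**Figure D3:**
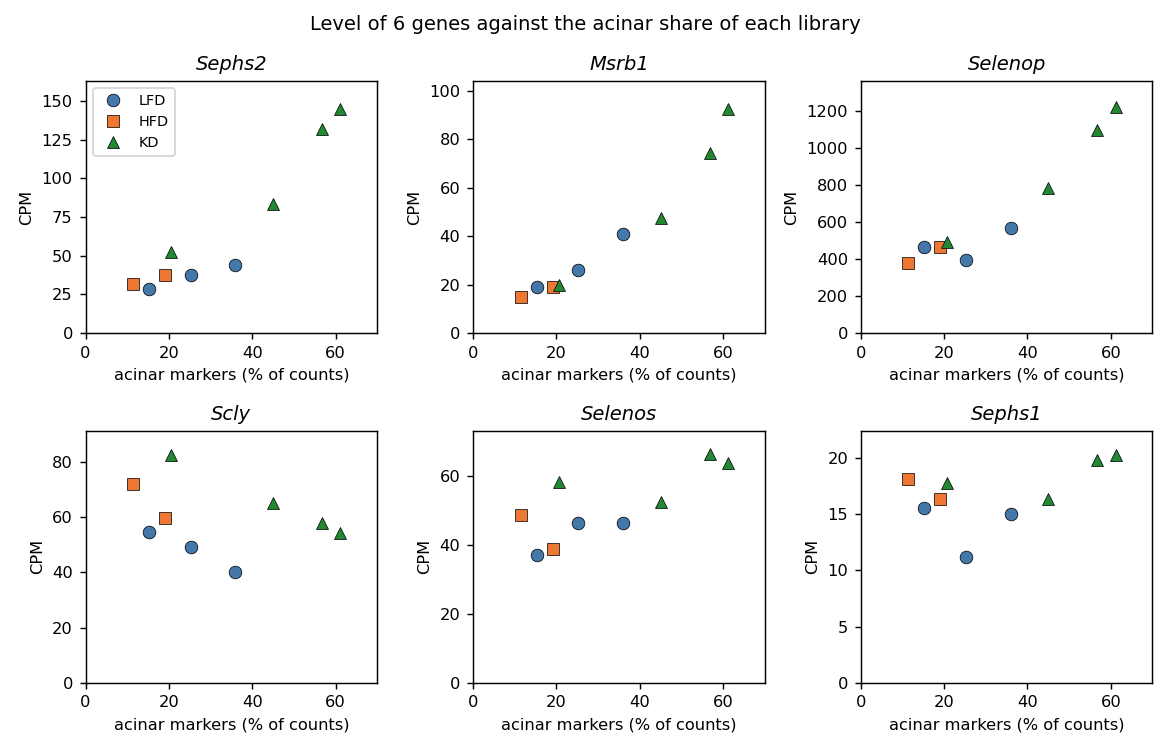
CPM of 6 genes against the percentage of counts taken by acinar markers, with 1 point per library. At an acinar share of 20.6%, KD replicate 4 has 52.1 CPM of Sephs2 and 82.5 CPM of Scly, and the other KD libraries lie at 45.0% to 61.2%.

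Among the antioxidant enzymes, Msrb1, which reduces oxidised methionine, measured 40.9, 26.2 and 19.2 CPM on LFD, 19.1 and 14.8 on HFD, and 92.4, 47.4, 74.4 and 19.98 CPM in KD replicates 1 to 4. Every KD library lay above the HFD libraries, but KD replicate 4 lay among the LFD libraries. KD against LFD gave 1.02 ± 0.48 (SE, log2, edgeR adjusted p 0.246) and KD against HFD 1.78 ± 0.58 (edgeR adjusted p 0.141), and neither passed. With the acinar covariate these were 0.15 ± 0.15 and -0.01 ± 0.22. Without KD replicate 4 both passed, at 1.31 (edgeR adjusted p 0.0347, and 0.00355 to 0.755 across alternatives) and 2.07 (0.0186, and 0.00251 to 0.990). Without that library 3 of the 29 genes other than Sephs2 were called for KD against LFD, Selenop and Msrb1 as higher and Lrp8 as lower, where 7.4% of all genes were called. For KD against HFD 3 of the 29 were called, Selenop and Msrb1 as higher and Gpx2 as lower, where 9.84% of all genes were called.

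The thioredoxin reductases, which recycle thioredoxin in the cytosol (Txnrd1), in mitochondria (Txnrd2) and in a form known from testis (Txnrd3), had log2 fold changes of 0.07 to 0.14 for KD against LFD, and none passed in any comparison by edgeR. Txnrd1 measured 70.8 to 83.6 CPM on LFD, 75.4 to 89.4 on HFD and 71.1 to 99.0 on KD, so the diets overlapped. Txnrd2 was at 4.69 and 5.15 CPM on HFD, below the 5.96 to 7.18 CPM of LFD, with a log2 fold change of -0.41 ± 0.23 (SE).

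The glutathione peroxidases, which reduce peroxides with glutathione, had no gene called by edgeR in any comparison. For KD against LFD 1 had an unadjusted p below 0.05, Gpx1, and limma-voom called that gene. Over all genes 22.7% had such a p there. EdgeR called 4.12% of all genes for KD against LFD and 0% in the other comparisons. Gpx1, the cytosolic form, measured 32.6, 35.6 and 28.1 CPM on LFD, 29.2 and 31.1 on HFD, and 22.8, 24.0, 25.4 and 29.5 CPM in KD replicates 1 to 4. KD replicates 1 to 3 lay below the LFD libraries and KD replicate 4 within them. KD against LFD gave -0.34 ± 0.14 (SE, log2) with an edgeR adjusted p of 0.17. Gpx4, which reduces lipid peroxides in membranes, was at 46.5 to 52.1 CPM on LFD, 53.3 and 58.0 on HFD and 50.3 to 59.1 on KD. Its values gave 0.14 ± 0.11 (SE, log2) for KD against LFD. Gpx2, a form typical of gut epithelium, ranged from 3.50 to 11.4 CPM over all libraries, with -0.35 ± 0.34 for KD against LFD. KD against HFD gave -0.95 ± 0.37 (SE, log2), the lowest of the 30 genes in that comparison, with an unadjusted p of 0.0242 and an edgeR adjusted p of 0.166. It was -0.40 ± 0.40 with the acinar covariate and -1.38 without KD replicate 4, where it passed (edgeR adjusted p 0.0210, and 0.0187 to 0.737 across alternatives).

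Of the 8 ER selenoproteins, 7 had a log2 fold change above 0 for HFD against LFD and 6 for KD against LFD, with medians of 0.40 and 0.19. Over all genes 49.8% and 48.1% were above 0. None of the 8 was called by edgeR, DESeq2 or limma-voom, and by edgeR 2 and 1 had an unadjusted p below 0.05. Over all genes 9.99% and 22.7% had such a p, and edgeR called 0% and 4.12%. DESeq2 called 1.44% and 9.56% of all genes and limma-voom 0.0593% and 10.1%. Cell type markers moved with HFD as well. For HFD against LFD the log2 fold change was below 0 for 32 of 32 acinar markers (median -0.98) and above 0 for 9 of 10 beta cell markers (0.48) and 8 of 8 endothelial markers (0.61), and their part in the ER values was not tested beyond the acinar covariate.

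Selenos, which helps move misfolded proteins out of the ER, measured 46.2, 46.3 and 36.9 CPM on LFD, 38.8 and 48.7 on HFD, and 63.6, 52.4, 66.1 and 58.0 CPM in KD replicates 1 to 4. All KD libraries lay above all LFD and HFD libraries. KD against LFD gave 0.48 ± 0.14 (SE, log2), which did not pass (edgeR adjusted p 0.0812), and was 0.42 ± 0.14 with the acinar and 1.0 ± 0.41 with the lymphocyte covariate. No alternative called it.

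Selenof, Selenot and Selenok were the ER genes with the lowest p-values for HFD against LFD. Selenof, which works with the enzyme that checks glycoprotein folding, measured 157, 154 and 140 CPM on LFD, 266 and 168 on HFD, and 155, 164, 155 and 205 CPM on KD. Both HFD libraries exceeded LFD, HFD replicate 1 by far more than HFD replicate 2. The difference of 0.53 ± 0.21 (SE, log2) did not pass (edgeR adjusted p 0.449), and it was 0.16 without HFD replicate 1.

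Selenot measured 137, 136 and 179 CPM on LFD, 208 and 203 on HFD, and 116, 160, 131 and 171 CPM on KD. Both HFD libraries lay above all libraries of the other diets. HFD against LFD gave 0.44 ± 0.20 (SE, log2, edgeR adjusted p 0.490) and KD against HFD -0.51 ± 0.18 (edgeR adjusted p 0.154), and neither passed. With the acinar covariate these were 0.25 ± 0.15 and -0.13 ± 0.18, and with the lymphocyte covariate HFD against LFD was 0.05 ± 0.38.

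Selenok, a partner of the ER retrotranslocation complex, measured 33.6, 38.3 and 30.02 CPM on LFD, 51.0 and 41.2 on HFD, and 31.5, 40.2, 40.2 and 52.7 CPM on KD. It exceeded LFD in both HFD libraries, and KD overlapped both diets. HFD against LFD gave 0.44 ± 0.20 (SE, log2) with an edgeR adjusted p of 0.502.

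The remaining ER, cytosolic, nuclear and mitochondrial selenoproteins had log2 fold changes between -0.02 and 0.47 for HFD against LFD, apart from Selenoo, a mitochondrial enzyme that attaches AMP to proteins, at -0.23 ± 0.20 (SE). For KD against LFD they lay between -0.0031 (Dio1, a deiodinase of thyroid hormone) and 0.25 (Selenon, an ER calcium regulator). Selenoi, which makes phosphatidylethanolamine, was at 43.9 to 44.8 CPM on LFD, 42.7 to 44.6 on HFD and 44.4 to 50.3 CPM on KD.

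The genes that build selenocysteine on its transfer RNA showed no called gene by edgeR, DESeq2 or limma-voom, and 0 at an unadjusted p below 0.05 for KD against LFD. In that comparison 22.7% of all genes had such a p, and edgeR called 4.12%. Pstk, Sepsecs (the synthase that completes selenocysteine) and Trnau1ap (a protein bound to that transfer RNA) had log2 fold changes of -0.10 to 0.04. The insertion factors had none called either. Secisbp2, the hairpin-binding protein, its relative Secisbp2l, and Eefsec, the elongation factor, had 0.09 to 0.24. Secisbp2l measured 47.3, 47.1 and 45.6 CPM on LFD, 39.4 and 46.7 on HFD, and 64.2, 52.0, 61.5 and 43.0 CPM in KD replicates 1 to 4. KD replicates 1 to 3 lay above LFD and KD replicate 4 below it.

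**Figure D4:**
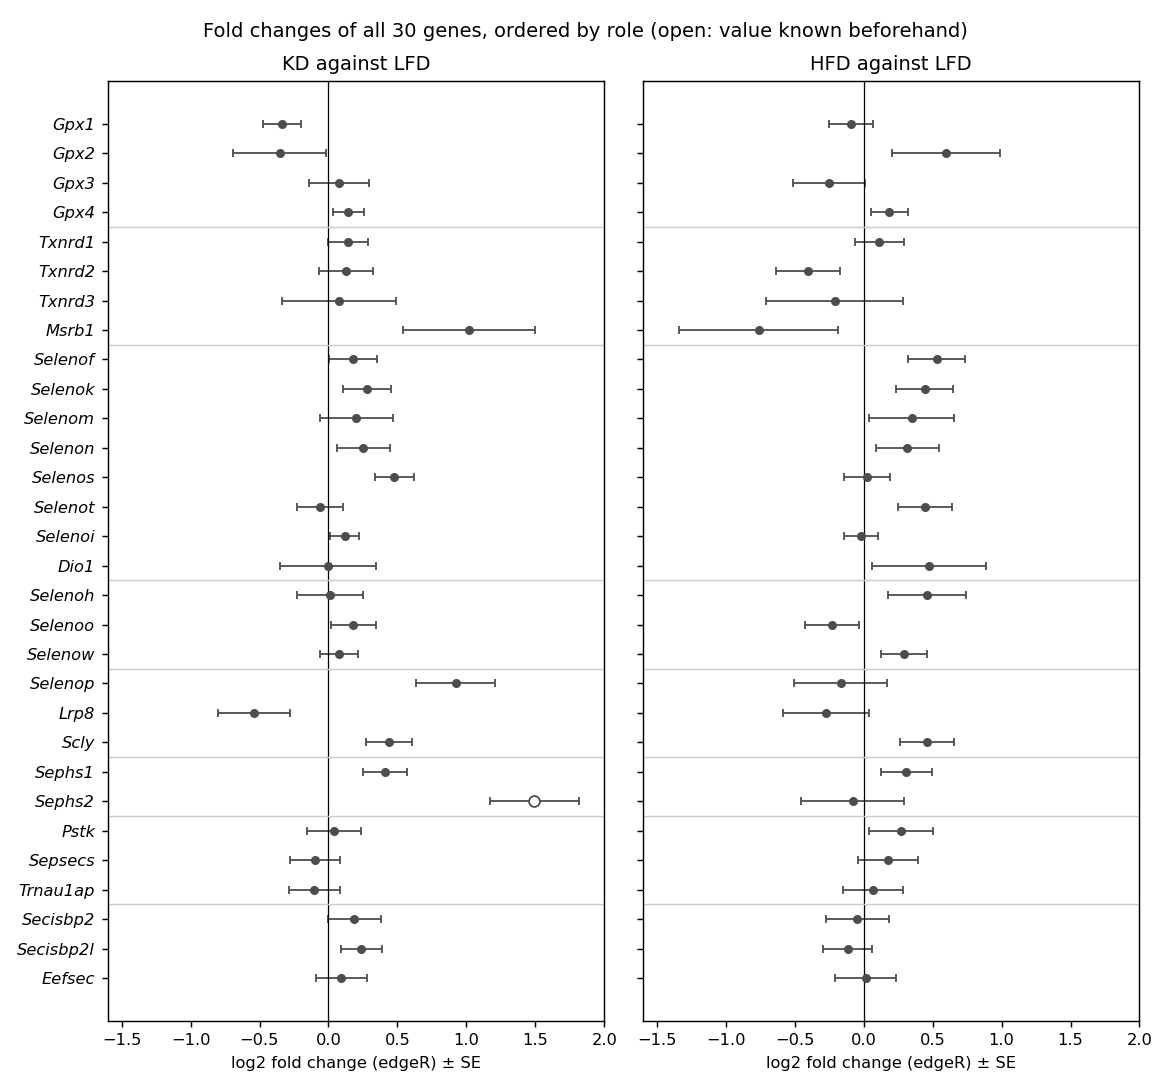
Log2 fold changes (points) with their SE (bars) from edgeR for the 30 genes, ordered by role, for KD against LFD (left) and HFD against LFD (right). The open symbol at 1.49 is Sephs2, whose value was known when the family was chosen, and apart from Selenop, Msrb1 and Lrp8 the other points for KD against LFD lie between -0.35 and 0.48.

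Summed over the 21 selenoprotein genes, transcripts came to 1351 to 1533 CPM on LFD, 1428 and 1622 on HFD and 1757 to 2288 CPM on KD. Selenop alone made up 29.0% to 37.0% of that sum on LFD, 26.5% and 28.7% on HFD and 53.2%, 41.6%, 50.5% and 28.2% in KD replicates 1 to 4. The other 20 genes summed to 965.5, 958.7 and 969.0 CPM on LFD, 1156 and 1050 on HFD and 1071, 1105, 1078 and 1262 CPM on KD. Without Selenop, the HFD and KD libraries all lay above LFD and overlapped each other. That separation of KD from LFD rested on Sephs2. With Sephs2 also left out, the other 19 genes summed to 921.2, 921.3 and 940.8 CPM on LFD, 1118 and 1018 on HFD and 925.2, 1022, 945.5 and 1210 CPM on KD, so KD overlapped LFD while both HFD libraries lay above it. KD replicate 4 was the lowest KD library with Selenop and the highest without it.

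**Figure D5:**
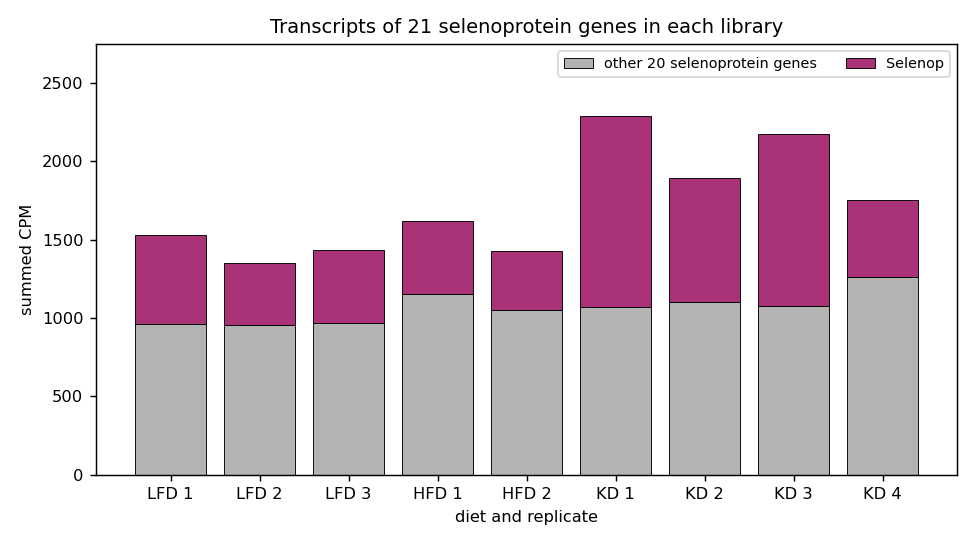
Summed CPM of 21 selenoprotein genes in each of the 9 libraries, split into Selenop and the other 20 genes. Selenop makes up 53.2% of the sum in KD replicate 1 and 28.2% in KD replicate 4, and the other genes sum to 958.7 to 969.0 CPM on LFD.

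KD replicate 4, whose acinar share was inside the LFD range, lay above the LFD range for 14 of the 30 genes, against 29.5% of all genes, and below it for 5, against 28%. Sephs2, Selenos and Scly were among those above, and Selenop and Msrb1 were within it. KD replicates 1 to 3 were together above LFD for 6 genes, against 16%, and below it for 3, against 14.6%. The 6 were Msrb1, Selenos, Selenop, Sephs1, Sephs2 and Secisbp2l, and the 3 were Gpx1, Gpx2 and Lrp8. Both the 14 and the 6 include Sephs2, whose high KD level was known beforehand, so for that gene they are no test.

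Genes that work beside the selenoproteins were examined in lists. For KD against LFD, the 12 partners of Selenos and Selenok in ER retrotranslocation all had log2 fold changes above 0, from 0.0045 (Ubxn8) to 1.26 (Sel1l, which anchors the ubiquitin ligase of the complex), with a median of 0.32. Over all genes 48.1% were above 0. EdgeR called none of the 12, and 7 had an unadjusted p below 0.05, against 22.7% of all genes. DESeq2 called 2 and limma-voom 1. On KD the summed level of the list moved with the acinar share. It was 1936, 2098 and 1340 CPM on LFD, 1448 and 1402 on HFD, and 4135, 2565, 3935 and 1879 CPM in KD replicates 1 to 4. KD replicates 1 to 3 lay above LFD and KD replicate 4 inside its range, and the part of acinar tissue was not tested. The oxidative folding list had 9 of 10 above 0, with Sdf2l1, an ER chaperone cofactor, higher (45.5 ± 16.6 CPM over 3 LFD and 98.7 ± 16.7 over 4 KD libraries, 1.12 ± 0.24 on the log2 scale, edgeR adjusted p 0.0279). The glycoprotein folding list had 4 of 5 above 0, with none called by edgeR, 1 at an unadjusted p below 0.05 and 1 called by DESeq2 and by limma-voom.

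Each of 3 redox lists had 1 gene called by edgeR for KD against LFD, and it was lower on KD. Over all genes edgeR called 4.12%, 3.14% as lower, and 48.1% had a log2 fold change above 0. In the thioredoxin and peroxiredoxin list 11 of 14 were above 0, while Txnip, the inhibitor of thioredoxin, fell by 0.87 on the log2 scale (SE 0.19, edgeR adjusted p 0.0299). In the glutathione list 8 of 11 were above 0. Mgst1, a membrane-bound glutathione transferase, fell there from 17.6 ± 1.86 CPM over 3 LFD to 8.56 ± 1.99 over 4 KD libraries (SD, edgeR adjusted p 0.0185). Of 14 Nrf2 targets, which include Txnrd1 and Gpx2, 8 were above 0, and Osgin1 fell by 0.96 on the log2 scale (SE 0.21, edgeR adjusted p 0.0279).

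The accessory decoding factors had 8 of 11 above 0, and Xpo1, a nuclear export receptor, fell by 0.84 on the log2 scale (SE 0.19, edgeR adjusted p 0.0310). No gene was called by edgeR among the cysteine homologues (3 of 6 above 0), the selenium handling genes (3 of 8) and the ferroptosis genes (5 of 10), with 1, 1 and 4 at an unadjusted p below 0.05. DESeq2 called 0, 0 and 3 of them and limma-voom 0, 1 and 4. Over all partner lists, which hold 93 tested genes outside the 30, edgeR called 0 for HFD against LFD and 0 for KD against HFD, with 7 and 28 at an unadjusted p below 0.05. Over all genes edgeR called 0% in both comparisons, and the shares with such a p were 9.99% and 22.7%. DESeq2 called 2 and 17 of the 93 in these comparisons, against 1.44% and 8.18% of all genes. Limma-voom called 0 in both, against 0.0593% and 0% of all genes. For KD against LFD edgeR called 5 of the 93, with 30 at an unadjusted p below 0.05, and DESeq2 and limma-voom 16 each, against 4.12%, 22.7%, 9.56% and 10.1% of all genes. Of the selenoproteins left out of the 30, Dio2 was tested, at 0.568 ± 0.523 CPM over the 3 LFD libraries (SD), and Dio3 and Selenov did not pass the filter.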

How the data were processed

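Libraries were strand-specific and made from polyadenylated islet RNA, per the labels' protocols. The authors deposited raw counts per Ensembl gene, 1 column per library. The submitters' processing notes name cutadapt 1.16, STAR 2.7.9a, featureCounts 1.6.3, DESeq2 1.40.2 and the build GRCm39, with no role or order. The strand setting and annotation are not given in the sources used here. Totals were 15513502 to 26588390 counts.

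Symbols came from GENCODE M21, which matched 51948 identifiers. Genes were kept by filterByExpr, scaled by TMM and tested two-sided with edgeR 4.0.16 in R 4.3.3 (robust glmQLFit and glmQLFTest, a mean per diet, all 9 libraries). CPM used the scaled library sizes. SE was the log2 fold change over the square root of F. Exon lengths were the union of annotated exons. Covariate scores were mean log2 CPM with a prior count of 2. No libraries of a diet matched within sampling noise (smallest chi-square per gene 22.5). The fit was tested on simulated data.

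Values in every library are given for genes called in any comparison, the 4 with the lowest p in each, Sephs1 and Sephs2. Other genes are given by range or as extremes of their role, and called genes of the 11 partner lists are named. Gpx1, Txnrd2, Sel1l and Ubxn8 were named after their values were seen. The members and lists were chosen with earlier results of these data known. Alternatives were other scaling (DESeq2 size factors, or TMM that leaves out acinar and hormone genes), other tests (DESeq2 1.42.0, and limma-voom from limma 3.58.1 with sample weights), no filter, at least 5 CPM in 3 libraries, only the groups compared, acinar and lymphocyte covariates, the replicate number as a block, and the omission of each library.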

Additional observations from a re-analysis of the deposited data

Results flagged for a closer look

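Gpx2 stood apart in 1 KD library. KD replicate 4 had 8.60 CPM where the other 3 KD libraries had 3.50 to 4.10 CPM, a gap of 0.883 of the whole range of the 4 libraries, above Dixon's critical value for a group of 4. Chance marks about 1 in 20 groups in this way, and 30 genes were examined. KD replicate 4 was also the KD library with the lowest acinar share, at 20.6% of counts.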

How the results depend on the processing

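For KD against LFD, the 1 of the 30 genes past the threshold in the main fit was Sephs2, described above without a test. The number called was 2 by DESeq2 (9.56% of all genes), 4 by limma-voom (10.1%) and 0 with no low-count filter (3.42%). It was 2 with the acinar covariate, 0 with the lymphocyte covariate and 4 with the replicate block (10.8%). It was 0 to 4 when 1 library was left out, with 4 only without KD replicate 4. These counts include Sephs2, whose value was known beforehand. Over the other 29 genes they were 0 as reported, 1, 3, 0, 1, 0 and 3 in the same order, and 0 to 3. For KD against HFD, 0 as reported, it was 3 by DESeq2 (8.18% of all genes) and 6 with the replicate block (12.5%). It was 0 to 4 when 1 library was left out, with 4 again without KD replicate 4. These counts include Sephs2 too. Over the other 29 genes they were 0 as reported, 2, 5 and 0 to 3 in the same order. For HFD against LFD it was 0 in every alternative. The cause was not tested. Equal replicate numbers are not said to mark paired mice, and their deviations correlated at 0.222, -0.016 and -0.003 for the 3 LFD and KD pairs, so the numbers were not taken as pairs. Replicate 4 exists only on KD, so the block sets that library aside.

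Of 513 fold changes of the 9 genes chosen by rule under alternatives, 30 changed sign. A further 18 newly passed, some of them Sephs2 for KD against HFD. Another 10 no longer passed, all of them Sephs2 for KD against LFD. The high KD level of Sephs2 was known beforehand, so its passes and failures are no test. None of the 30 that changed sign passed. With the acinar covariate they were Msrb1 for HFD against LFD (0.16) and KD against HFD (-0.011), Selenok (0.0468) and Scly (0.47) for KD against HFD, Selenot for KD against LFD (0.12), and Selenop (0.27) and Sephs2 (0.52) for HFD against LFD. With the lymphocyte covariate they were Sephs1 (-0.22 for KD against LFD, -0.16 for HFD against LFD and -0.0593 for KD against HFD) and Sephs2 for HFD against LFD (0.12). Selenos for HFD against LFD was -0.0045 with DESeq2 size factors, -0.0060 with TMM that leaves out acinar and hormone genes, -0.0041 by DESeq2 and -0.0509 by limma-voom. Scly for KD against HFD was 0.0019 with DESeq2 size factors and 0.0022 by DESeq2, and Selenot for KD against LFD was 0.0464 by limma-voom. Leaving out 1 library gave -0.643 to 0.0239 for Selenof and -0.304 to 0.0051 for Selenok (KD against HFD), -0.153 to 0.175 for Selenos and -0.239 to 0.0482 for Sephs2 (HFD against LFD), -0.153 to 0.0791 for Selenot (KD against LFD) and -0.155 to 0.125 for Scly (KD against HFD).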
